A study of Sus scrofa with 20 samples.

Results

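The genes described here are the nuclear receptors that sense foreign compounds and lipids, and they were chosen by name: NR1I2, NR1I3, NR1H3, NR1H4, PPARA, PPARG, RXRA and HNF4A. Of these 8 genes, 7 were matched to a reference ID of the count data through their RefSeq accession, out of 21755 reference IDs in all, and RXRA is not analysed here. The IDs were NM_001038005.1 for NR1I2, NM_001037996.1 for NR1I3, NM_001101814.1 for NR1H3, XM_001928800.2 for NR1H4, NM_001044526.1 for PPARA, NM_214379.1 for PPARG and NM_001044571.1 for HNF4A. RNA-Seq was done on testis and liver of 10 boars of 116 days of age, 5 with high and 5 with low androstenone in fat, which gives 4 groups of 5 samples with 1 library each. The boars were Duroc × F2 crossbreds, in which the F2 came from Leicoma × German Landrace F1 animals and the Large White breed. The labels do not tie a testis to the liver of the same boar.

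Nuclear receptors are transcription factors that are switched on by small molecules. NR1I2 (PXR) and NR1I3 (CAR) respond to drugs, steroids and bile acids and raise the genes of detoxification, among them cytochrome P450 enzymes and transporters. NR1H3 (LXR alpha) senses oxysterols, NR1H4 (FXR) senses bile acids, and PPARA and PPARG sense fatty acids, the former driving fatty acid oxidation in liver and the latter fat storage in adipocytes. These receptors bind DNA as partners of a retinoid X receptor such as RXRA, whereas HNF4A, a master regulator of hepatocyte genes, binds as a homodimer. Androstenone is a steroid made in the Leydig cells of the testis and degraded mainly in the liver, which is why the steroid-sensing receptors are of interest in both organs.

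The 10 testis libraries held between 6161397 and 15975386 counts and the 10 liver libraries between 5796973 and 26783002, and 3 counts in a library corresponded to 0.188 to 0.487 counts per 1000000 (CPM) in testis and to 0.112 to 0.518 CPM in liver. This floor is taken on raw library size. On the TMM scale of all 20 libraries, library size was multiplied by 1.27 to 1.45 in testis and by 0.515 to 0.876 in liver. On that scale 3 counts are thus a lower CPM in testis and a higher CPM in liver than given here. Values under the floor cannot be told from 0, and the floor covers counting error only. The tissues carried their own markers: all 6 matched hepatocyte markers and all 4 macrophage markers were called higher in liver, all 6 germ cell markers and 3 of 4 Leydig cell markers were called lower, and the 1 matched blood marker was higher in liver. The other lists were mixed, with 3 higher and 2 lower of 5 cholangiocyte markers, 2 and 2 of 4 endothelial and stellate markers, 2 and 2 of 4 adipocyte markers, and 1 and 3 of 5 Sertoli cell markers; scaling by library size alone moved 1 ID in each of the last 3 lists. Of all IDs tested, 32.2% were called higher and 43.5% lower in liver. In the 10 livers 3 libraries stood apart. NR1H4 was at 106 CPM in low androstenone replicate 5 and at 112 and 130 CPM in high androstenone replicates 2 and 3, against 40.6 to 54.3 CPM in the other 7. These 3 livers lay above all of the other 7 for 9.96% and below all of them for 8.85% of the 11830 IDs that averaged 10 counts or more over the livers. Fold changes that they move and the receptor pairs named in the text are therefore also given without them. Single r values of NR1H4 are given within the other 7 livers only. Counts and medians over all pairs, the choice of the IDs closest to NR1H4 and pairs called with a replicate left out include the 3 livers. Matched by total count, these 3 livers also had the highest shares of mapped reads of the 10, going by the study's read numbers. The cause was not tested.

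The first comparison asked how the receptors are distributed between liver and testis. Of the 7 receptors, 6 were higher in liver and 1, PPARG, was lower. Among all 19065 IDs tested, 32.2% were called higher and 43.5% lower in liver, and the median log2 fold change of all IDs was -0.31, against 5.31 for the receptors. IDs were called in edgeR's quasi-likelihood test when the adjusted p was below 0.05 and the difference reached 1.5-fold, and CPM in this comparison were TMM-normalized over all 20 libraries. Because a level depends on transcript length, levels are compared between samples and not between genes. In whole tissue, fewer cells of a type and less RNA per cell cannot be told apart.

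The xenobiotic sensors were close to the floor in testis. NR1I2 had 2 to 10 counts in each testis library, with a lowest, median and highest level of 0.214, 0.309 and 0.714 CPM, and 41.5, 75.1 and 101 CPM in liver. The lowest liver was thus far above the highest testis. The log2 fold change of NR1I2, liver over testis, was 7.60 ± 0.21 (SE, 10 samples per tissue, edgeR adjusted p = 3.0e-19), a 194-fold difference. NR1I3, the constitutively active relative of NR1I2, lay at 0.0441, 0.413 and 1.19 CPM in testis and at 13.9, 33.5 and 51.5 CPM in liver. Its tissues did not overlap either, and its log2 fold change was 6.06 ± 0.31 (SE, edgeR adjusted p = 3.1e-15).

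The sterol and bile acid sensors differed from each other in how much testis retained. NR1H4 had at most 8 counts in a testis library, and 6 of 10 testis libraries held 3 counts or fewer. Its level was 0, 0.203 and 0.778 CPM (lowest, median, highest) in testis and 60.8, 72.4 and 187 CPM in liver, which gave the largest log2 fold change of the 7 receptors, 8.56 ± 0.40 (SE, edgeR adjusted p = 5.0e-16). NR1H3 was clearly detected in both tissues, at 3.21, 6.18 and 8.73 CPM in testis and 38.3, 55.5 and 91.5 CPM in liver. Every liver lay above every testis, with a log2 fold change of 3.36 ± 0.22 (SE, edgeR adjusted p = 4.5e-13).

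HNF4A, whose product maintains the hepatocyte programme, was found at 0, 0.562 and 0.905 CPM in testis and at 17.2, 25.7 and 33.2 CPM in liver, a log2 fold change of 5.31 ± 0.26 (SE, edgeR adjusted p = 1.0e-15). PPARA was uneven between testis libraries. It ranged from 0.0958 to 2.29 CPM there, with a coefficient of variation of 88.7%, second to the 92.7% of NR1H4, and from 4.13 to 10.3 CPM in liver, with 25.2%. The tissues were still apart, with a log2 fold change of 3.09 ± 0.39 (SE, edgeR adjusted p = 8.2e-08).

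PPARG ran against the other receptors. It was at 2.33, 4.77 and 12.96 CPM (lowest, median, highest) in testis and at 0, 0.518 and 1.28 CPM in liver, where 4 of 10 libraries held 3 counts or fewer. Every testis lay above every liver, and the log2 fold change was -3.20 ± 0.34 (SE, edgeR adjusted p = 3.7e-09). For comparison, every liver lay above every testis for 15.3% and below every testis for 27.5% of all IDs tested. All 7 receptors were separated in this way. Without the 3 livers that stood apart, the log2 fold change was 8.09 for NR1H4 and -3.62 for PPARG, and all 7 receptors were again called. The 3 livers were picked by their NR1H4 level, so the lower value of NR1H4 follows from that choice.

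**Figure D1:**
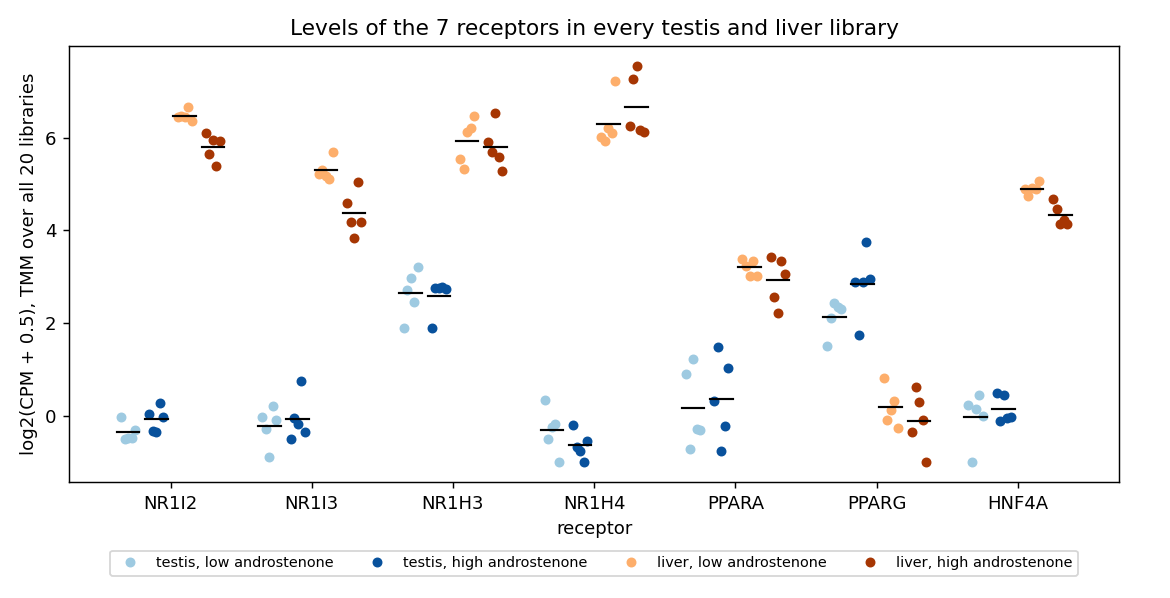
Level of each receptor in the 20 libraries, as log2(CPM + 0.5) after TMM normalization over both tissues; points are libraries, coloured by tissue and androstenone group, and bars are group means (n = 5). The liver points lie above all testis points for every receptor except PPARG, where they lie below.

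The known targets and relatives of these receptors gave a background to this pattern. The lists are textbook lists, and each covers only the genes that could be matched. They carry no sign, so genes that a receptor raises and genes that it lowers are counted together. All 12 matched HNF4A targets, all 17 PPARA targets, all 7 tested NR1H4 targets and all 7 NR1I3 targets were called higher in liver, with median log2 fold changes of 11.25, 4.55, 8.13 and 7.90 against -0.31 for all IDs. When libraries were scaled by size alone, 6 of the 7 NR1I3 targets and all of the other three lists were called higher. The largest differences among those without overlap were OTC (14.5), a urea cycle enzyme, and APOC3 (13.8) and APOH (13.5), plasma apolipoproteins, in the HNF4A list. In the PPARA list they were the fatty acid hydroxylase CYP4A21 (12.5), the fatty acid binding protein FABP1 (11.8) and CREB3L3 (8.32), a hepatic transcription factor. In the NR1H4 list they were FETUB (13.5), the bile salt export pump ABCB11 (11.7) and the bile acid importer SLC10A1 (8.41). For the NR1I3 list they were CYP2C33 (13.40), CYP2C49 (10.98) and CYP2A19 (8.83), all cytochrome P450 enzymes, of which the CYP2C genes are in the NR1I2 list too. These values are log2 fold changes, liver over testis. Of all IDs tested, 32.2% were called higher in liver.

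The other target lists were less uniform, to be read against 32.2% of all IDs called higher and 43.5% lower in liver. Of 6 matched NR1I2 targets 5 were higher and 1 lower, the latter the efflux pump ABCB1 (-1.04 ± 0.24, SE, edgeR adjusted p = 0.00045). CYP2C42 was at 12.7 to 68.5 CPM in liver and at 0 to 0.214 CPM in testis. The NR1H3 list had 4 higher and 1 lower of 5, but 2 and 1 with RLE factors and 1 and 1 with library size alone. MYLIP, a ubiquitin ligase of the LDL receptor, and PLTP, a phospholipid transfer protein, lay just above the 1.5-fold limit at log2 fold changes of 0.60 and 0.59, and SCD, a fatty acid desaturase, was at 0.96. APOE, a carrier of cholesterol, was at 709 to 7757 CPM in liver and 2.62 to 8.08 CPM in testis, and the lower member was LPL, lipoprotein lipase, which is in the PPARG list as well. In the PPARG list 4 of 7 were higher (3 by library size alone) and 3 lower. The lower ones were LIPE, a lipase, AQP7, a glycerol channel, and LPL, at log2 fold changes of -6.89, -6.47 and -3.69. The gluconeogenic enzyme PCK1 (11.7) and the lipid droplet protein CIDEC (6.77) were higher in liver.

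Other nuclear receptors were split between the tissues, with 11 of 25 reference IDs called higher and 9 lower in liver. Over all IDs tested 32.2% were called higher and 43.5% lower. With library size alone the split was 6 higher and 10 lower, where 3577 and 11348 of all 19065 IDs were called. The list median was 0.53, or -0.44 with library size alone, against -0.31 and -1.28 for all IDs. NR0B2 (SHP), the corepressor that NR1H4 induces, was at 34.7, 167 and 380 CPM (lowest, median, highest) in liver and at 3.34, 4.44 and 5.59 CPM in testis. THRB, a thyroid hormone receptor, and ESRRA, an orphan receptor of energy metabolism, were also higher in liver by log2 fold changes of 3.50 and 3.01. On the testis side, NR2C2, an orphan receptor, was at 23.5 to 46.5 CPM against 0.734 to 2.62 CPM in liver. NR5A1 (SF1), the regulator of steroidogenic genes, had 0 counts in all 10 livers and was at least 36.6-fold lower there, and the progesterone receptor PGR, also at 0 in all livers, was at least 47.7-fold lower. Both bounds are taken against 3 counts over the 10 livers. Among 8 coregulator IDs 3 were higher and 2 lower (1 and 4 with library size alone), to be read against the same shares of all IDs. NCOA2 was higher (1.69 ± 0.21, SE), and LPIN1 and NCOA3 were lower (-5.14 ± 0.44 and -1.87 ± 0.19, SE) in liver, as log2 fold changes.

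**Figure D2:**
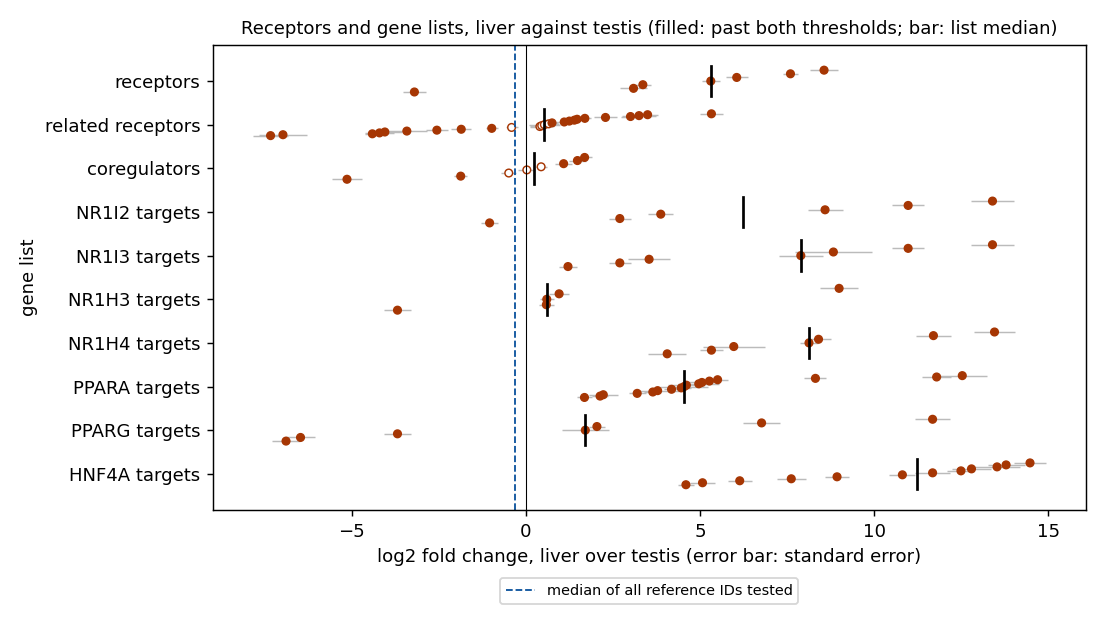
Log2 fold change, liver over testis, with its standard error for each matched ID of the receptors, their relatives, coregulators and target lists; filled points passed both thresholds, black bars are list medians and the dashed line is the median of all IDs tested (-0.31). All points of the HNF4A, PPARA, NR1H4 and NR1I3 target lists lie on the liver side.

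The next comparison asked whether receptor levels in liver differ between high and low androstenone boars. No receptor was called, and no ID was called at all (0% of 15855 IDs), while 465 IDs had an unadjusted p under 0.05 in edgeR and DESeq2 called 7 IDs, none of them a receptor. NR1I2, NR1I3 and HNF4A nevertheless had lower values in the high androstenone livers, each with an unadjusted p under 0.05. That is 3 of the 7 receptors, where 1.69% of all IDs were lower at an unadjusted p under 0.05. CPM in this and the following comparisons were TMM-normalized within the tissue.

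NR1I2 was at 56.5, 58.4, 63.8, 73.0 and 57.6 CPM in low androstenone replicates 1 to 5. The high androstenone livers had 47.7, 36.4, 42.6, 31.7 and 46.6 CPM. Every high androstenone liver was below every low one, and the group means were 61.9 ± 6.82 and 41.0 ± 6.83 CPM (SD, n = 5). The log2 fold change, high over low, was -0.59 ± 0.23 (SE, edgeR unadjusted p = 0.0223, adjusted p = 0.9999). An exact two-sided permutation test of NR1I2 alone gave p = 0.00794, the smallest that 5 against 5 allows.

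HNF4A showed the same order. Its levels were 19.1, 17.5, 21.7, 21.1 and 23.4 CPM in the low and 17.4, 15.8, 11.96, 13.9 and 13.2 CPM in the high androstenone livers. The groups were just apart, with means of 20.5 ± 2.28 and 14.5 ± 2.17 CPM (SD, n = 5) and a log2 fold change of -0.50 ± 0.23 (SE, edgeR unadjusted p = 0.0438, adjusted p = 0.9999). The exact permutation p of HNF4A alone was 0.00794. This lack of overlap was lost with RLE factors, where the exact p was 0.0159.

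NR1I3 had 23.9, 26.2, 26.2, 24.8 and 36.3 CPM in low and 16.5, 12.9, 9.60, 24.996 and 13.5 CPM in high androstenone livers. Its groups overlapped through high androstenone replicate 4, while the other 4 high androstenone livers were below all low ones. The log2 fold change was -0.83 ± 0.28 (SE, edgeR unadjusted p = 0.0107, adjusted p = 0.9999), the largest of the 7 receptors in this comparison, and the exact permutation p of NR1I3 alone was 0.0238. Without the 3 livers that stood apart it was -0.49, against -0.60 for NR1I2 and -0.43 for HNF4A.

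Over all IDs tested, every high androstenone liver was below every low one for 0.328% of IDs and above for 0.177%. NR1I2 and HNF4A were the 2 receptors of the first kind, and there was none of the second. Scaling mattered here: with library size alone no receptor was separated, with RLE factors NR1I2 alone was, and on the scale of all 20 libraries NR1I3 joined the others. Within the 5 deeper livers (over 10000000 counts), NR1I2 was at 56.5 to 58.4 CPM in 3 low and at 42.6 to 47.7 CPM in 2 high androstenone samples. Within the 5 shallower ones it was at 63.8 to 73.0 CPM in 2 low and 31.7 to 46.6 CPM in 3 high androstenone samples. The order was the same in both depth classes, each too small for a test to pass 0.05.

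The remaining receptors overlapped between the androstenone groups in liver. NR1H4 had 41.7, 40.6, 54.3, 49.3 and 106 CPM in low and 53.1, 112, 130, 54.1 and 53.5 CPM in high androstenone livers (log2 fold change 0.46 ± 0.36, SE). Without the 3 livers that stood apart the log2 fold change was 0.18. Those livers were picked by their NR1H4 level, so this value is no independent check. NR1H3 ranged from 26.6 to 61.9 CPM in low and from 29.4 to 63.4 CPM in high androstenone livers (-0.10 ± 0.31, SE). PPARA was at 5.34 to 6.98 and 2.86 to 7.36 CPM (-0.16 ± 0.30, SE, or 0.11 without the 3 livers), with 2 of the 3 livers that stood apart lowest in the high androstenone group. PPARG was near the floor in both groups, at up to 0.834 and 0.761 CPM, with a log2 fold change of -0.36 ± 0.64 (SE) that was -1.51 without the 3 livers. The edgeR adjusted p was 0.9999 for each of these 4 receptors. The summed hepatocyte markers were at 99997 to 265690 CPM in low and 91657 to 201304 CPM in high androstenone livers on the scale of all libraries, all 6 had a negative log2 fold change with a median of -0.17, and none was called. Their part in the values of NR1I2, NR1I3 and HNF4A was not tested.

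**Figure D3:**
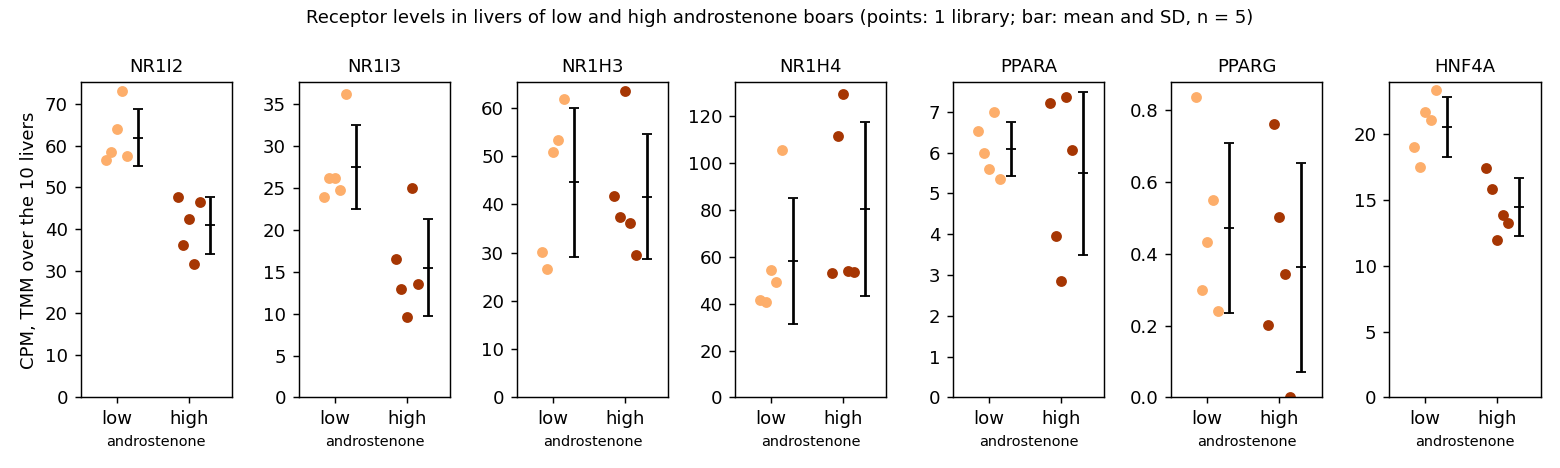
CPM of each receptor in the 10 livers (TMM over the 10 livers), low androstenone on the left and high on the right of each panel; points are libraries and the black bars are mean and SD (n = 5). NR1I2 and HNF4A have no overlap between groups, and NR1I3 overlaps through 1 liver at 24.996 CPM.

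None of the gene lists had a called ID in the liver comparison. The study, which used DESeq on these samples, did report CYP7A1 of the NR1H4 list as lower in high androstenone livers. It described a similar pattern by qRT-PCR in the same boars and in further boars. Of the 6 NR1I2 targets 2 had a positive and 4 a negative log2 fold change, with a median of -0.22 against 0.01 for all IDs, and 1, ALAS1, had an unadjusted p under 0.05. ALAS1, which catalyses the first step of heme synthesis and is induced by NR1I2 and NR1I3, was at 131, 224, 289, 324 and 159 CPM in low and at 123, 89.5, 123, 44.3 and 121 CPM in high androstenone livers. These groups did not overlap. Its log2 fold change was -1.17 ± 0.35 (SE, edgeR unadjusted p = 0.0044, adjusted p = 0.9999). The RefSeq table of assembly Sscrofa11.1 classes this ID (NR_029391.1) as a transcribed pseudogene, so counts of the gene and of a copy of it cannot be told apart.

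The same question in testis gave no called receptor and no called ID (0% of 18340 IDs), with 1741 IDs at an unadjusted p under 0.05 in edgeR and 120 IDs called by DESeq2, none of them a receptor. DESeq2 gave no adjusted p for 4 of the receptors there. The study did report differing genes in testis, among them CYP2C33 and CYP2B22 of the target lists and the blood marker HBB, but none of the receptors. PPARG was at 3.36, 5.37, 6.92, 6.62 and 6.17 CPM in low and at 9.67, 3.92, 9.57, 18.3 and 10.2 CPM in high androstenone testes. All but 1 of the high androstenone testes were above every low one. The log2 fold change was 0.82 ± 0.33 (SE, edgeR unadjusted p = 0.0232, adjusted p = 0.45), and the exact permutation p of PPARG alone was 0.111. Without high androstenone replicate 4, the testis with 18.3 CPM, the log2 fold change was 0.52. It was the 1 receptor of 7 that was higher at an unadjusted p under 0.05, as were 3.18% of all IDs. Adipocyte markers, summed over 4 matched IDs on the scale of all libraries, were at 38.3 to 74.0 CPM in low and 45.03 to 76.0 CPM in high androstenone testes. All 4 had a positive log2 fold change, with a median of 0.33 against -0.02 for all IDs, and none was called. In testis LEP and LIPE made up most of this sum, at medians of 30.2 and 23.5 CPM. Between tissues LEP and LIPE were called lower in liver, at log2 fold changes of -8.62 and -6.89. CIDEC and PLIN1 were called higher there, at 6.77 and 1.71. As the 4 markers share no direction between tissues, their sum is no clear measure of adipocytes in testis. The part of these markers in the PPARG values was not tested.

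NR1H3 had 4.62, 8.51, 10.3, 7.25 and 12.2 CPM in low and 4.54, 8.67, 8.64, 9.08 and 8.57 CPM in high androstenone testes, with a log2 fold change of -0.14 ± 0.27 (SE). The other 5 receptors rested on few counts. NR1I2 was at 0.299 to 0.700 CPM in low and 0.399 to 1.01 CPM in high androstenone testes, NR1I3 at 0.0618 to 0.946 and 0.298 to 1.68 CPM, and HNF4A at 0 to 1.26 and 0.594 to 1.26 CPM. NR1H4 was at 0 to 1.12 and 0 to 0.521 CPM, and PPARA at 0.149 to 2.59 and 0.133 to 3.15 CPM. All of these groups overlapped, and no difference was detectable at this depth (edgeR adjusted p of 0.65 or more).

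Whether the androstenone difference of a receptor differed between the tissues was tested as an interaction over all 20 libraries. No receptor and no ID was called (0% of 19065 IDs), with 890 IDs at an unadjusted p under 0.05 in edgeR and 1 ID called by DESeq2. The estimate, which is negative where the high-to-low ratio was lower in liver than in testis, was below 0 for 6 of 7 receptors, and its median over all IDs was -0.03. One of the 6, NR1H3, was at -0.02 ± 0.42 (SE) and changed sign when single replicates were left out. NR1I2 had the smallest p, with an interaction of -1.30 ± 0.40 on the log2 scale (SE, edgeR unadjusted p = 0.0033, adjusted p = 0.99). It was the 1 receptor below 0 at an unadjusted p under 0.05, as were 3.04% of all IDs. The testis side of NR1I2 rested on 2 to 10 counts in a library. NR1I3, NR1H4, PPARA and HNF4A also rested on few counts in testis, and PPARG on 0 to 12 counts in a liver library.

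The receptor levels were then related to each other across the 10 livers, as Pearson's r of log2(CPM + 0.5) with a permutation test of 100000 resamples, adjusted over the 21 pairs. None of the 21 pairs passed an adjusted p of 0.05, and 3 had an unadjusted p under 0.05. The median absolute r was 0.28 over the pairs, and 0.31 between the receptors and all IDs that averaged 10 counts or more. NR1I3 and HNF4A had an r of 0.80 (p = 0.0065, adjusted p = 0.069) and a Spearman's rho of 0.76 (permutation p = 0.0147, adjusted p = 0.15). NR1I2 and HNF4A had an r of 0.75 (p = 0.0132, adjusted p = 0.092) and a rho of 0.79 (permutation p = 0.00912, adjusted p = 0.15). Leaving out the 2 livers farthest from the median on the x axis gave r = 0.70 and 0.83. When values were centred on the androstenone group, r was 0.42 (exact within-group permutation p = 0.31) for the first and 0.14 (exact p = 0.73) for the second pair. NR1I2 and NR1I3 had an r of 0.50 (permutation p = 0.138, adjusted p = 0.48) and a rho of 0.58 (permutation p = 0.0883, adjusted p = 0.37) over the 10 livers, and an r of -0.49 (exact within-group permutation p = 0.26) after centring. Within the 7 livers without the 3 that stood apart, r was 0.57 for NR1I3 with HNF4A (exact permutation p = 0.13, adjusted p = 0.65), 0.84 for NR1I2 with HNF4A (exact p = 0.0117, adjusted p = 0.25) and 0.28 for NR1I2 with NR1I3 (exact p = 0.54). These 7 livers were of both androstenone groups, and their values were not centred on the group. By library size alone NR1I2 and HNF4A reached r = 0.85 and an adjusted p of 0.025, against 0.025 to 0.89 over the alternatives tried.

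**Figure D4:**
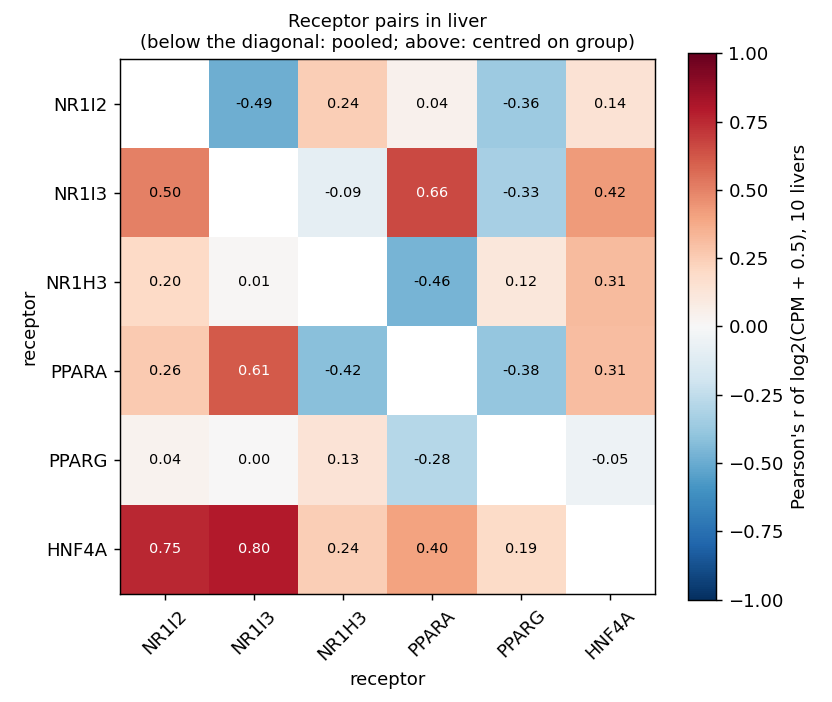
Pearson's r of log2(CPM + 0.5) across the 10 livers for the 15 pairs of 6 receptors, pooled below the diagonal and centred on the androstenone group above it; NR1H4 is left out because its livers form separate clusters. HNF4A has the highest pooled values, 0.80 with NR1I3 and 0.75 with NR1I2, which become 0.42 and 0.14 after centring. The values of PPARG rest on 0 to 12 counts in a liver library.

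The 3 livers that stood apart carried the third of these pairs, NR1H4 and PPARA, so no pooled value is given for it. PPARA was at 2.86 to 5.34 CPM in those 3 livers and at 5.61 to 7.36 CPM in the other 7. Within the 7 livers, where NR1H4 was at 40.6 to 54.3 CPM, r was 0.18 (exact permutation p = 0.63) and rho 0.04 (exact permutation p = 0.96). NR1H4 with NR1H3 had an r of 0.56 within these 7 livers (exact permutation p = 0.19), and none of its pairs with the other receptors was under an unadjusted p of 0.05 there.

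Receptor levels were also related to their own known targets, over 61 pairs. Only NR1I2 with ALAS1 passed, with an r of 0.94 and a rho of 0.99 (p = 1e-05 for each, the smallest that 100000 resamples can give, adjusted p = 0.00061), and r stayed between 0.91 and 0.97 when single livers were left out. Leaving out the 2 livers farthest from the median of NR1I2 gave r = 0.89 (exact permutation p = 0.0026, adjusted p = 0.16), and centring on depth class gave r = 0.95 (adjusted p = 0.064), so the call was lost under both. Within the 7 livers without the 3 that stood apart r was 0.97, and with values centred on the androstenone group it was 0.89 (exact within-group permutation p = 0.00021, adjusted p = 0.0127). In the low androstenone group NR1I2 and ALAS1 were both highest in replicate 4, and in the high group both were lowest in replicate 4. Of 11829 other IDs, 3 had an absolute r with NR1I2 of this size or larger, ALAS1 included. NR1I3 with ALAS1 had an r of 0.32 (permutation p = 0.376, adjusted p = 0.79) and a rho of 0.55 (permutation p = 0.106, adjusted p = 0.47).

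Levels of the other NR1I2 targets did not follow the receptor in this way. CYP2C33, CYP2C42, CYP2C49, ABCB1 and SULT2A1 had r values with NR1I2 of -0.08, -0.13, 0.06, 0.24 and -0.14. Over all 61 pairs 29 values of r were positive and 32 negative, with a median absolute r of 0.29. The target lists carry no sign, so this split does not test a direction.

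**Figure D5:**
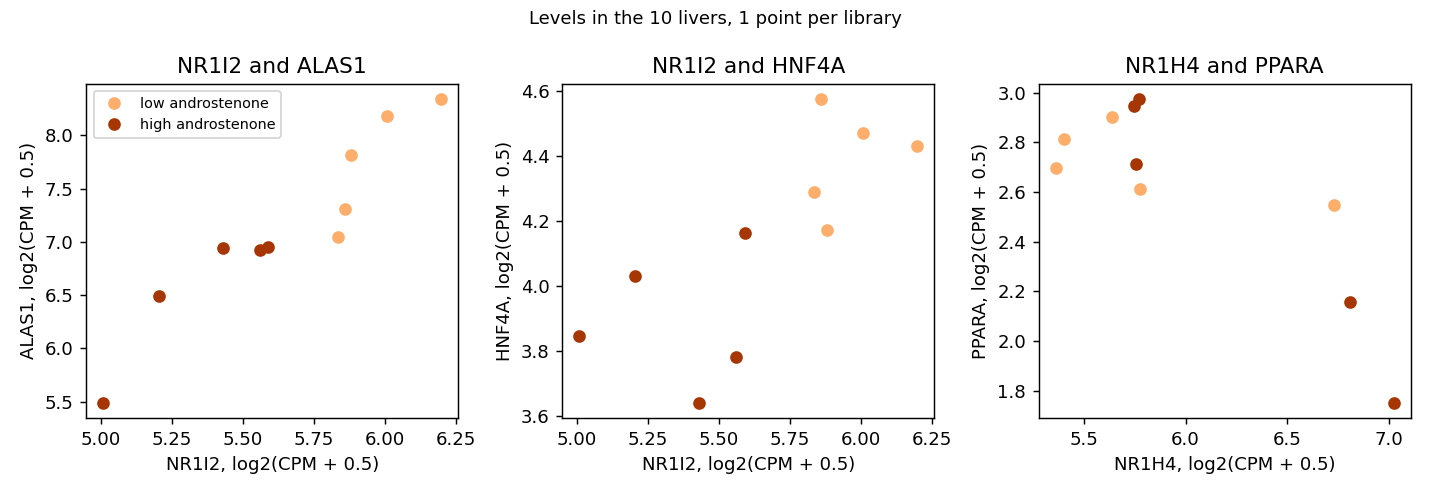
Levels of pairs of genes in the 10 livers as log2(CPM + 0.5), 1 point per library, coloured by androstenone group: NR1I2 with ALAS1, NR1I2 with HNF4A, and NR1H4 with PPARA. The ALAS1 points follow NR1I2 within both groups (r = 0.94 over 10 livers), the HNF4A points differ mainly between groups, and in the last panel 3 livers lie apart at high NR1H4.

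For each receptor, the IDs with a symbol whose liver pattern was most like it were named by their r over the 10 livers, as a description. They were ALAS1 (0.94) and FEN1 (0.87) for NR1I2, PLTP (0.90) and NUGGC (0.89) for NR1I3, CLK3 (0.98) and FBXL12 (0.97) for NR1H3, and XPC (0.96) and F8A1 (0.92) for PPARA. PPARA was at 2.86 to 5.34 CPM in the 3 livers that stood apart and at 5.61 to 7.36 CPM in the other 7. NR1H3 was highest in high androstenone replicate 3 and low androstenone replicate 5 of those 3 livers, at 63.4 and 61.9 CPM. NR1I3 and HNF4A each had both their highest and their lowest liver among them. The r values of PPARA, NR1H3, NR1I3 and HNF4A can thus rest on those 3 livers, and they are not given without them. SEPT4 (0.82) and ASTE1 (0.80) came closest to PPARG, and LPIN3 (0.84) and MVK (0.83) to HNF4A. PPARG had 0 to 12 counts in a liver library, with 4 of 10 at 3 counts or fewer, so its r values rest on levels near the floor. SARAF and DDX55 came closest to NR1H4 and shared its high values in the same 3 livers, at 199 to 239 CPM for SARAF and 97.4 to 172 CPM for DDX55, against 38.9 to 88.6 CPM and 23.5 to 49.5 CPM in the other 7. Within those 7, r was 0.59 and 0.29. The points share library depth and composition, and no receptor was called for a relation with the total count.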

How the data were processed

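RNA of testis and liver was made into cDNA with the SMART kit and sequenced on an Illumina HiSeq as single reads, 1 lane per sample. Per the labels and the study's methods, reads were called with CASAVA 1.7 and mapped with BWA and SAMtools to RefSeq and UniGene sequences of Sscrofa 9.2. The authors deposited raw counts per reference ID, not normalized. How reads that fit several IDs were counted is not given in the sources used here. Each file holds 21785 lines for 21755 IDs, because 10 IDs are repeated 4 times with equal counts, of which 1 copy was kept. A RefSeq gene table of Sscrofa11.1 named 6654 IDs, and other IDs of the same genes may hold further reads. No gene coordinates or transcript lengths of the files' build were used.

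Counts were fitted in edgeR 4.0.16 (R 4.3.3): TMM, IDs with at least 10 summed counts, quasi-likelihood test, Benjamini-Hochberg. SE is the absolute log2 fold change over the square root of F. Liver against testis and the interaction came from 1 fit of 4 groups. Correlations used Python 3.11.15, numpy 2.4.6 and scipy 1.17.1, with 100000 resamples for 10 livers and all permutations otherwise. Alternatives were DESeq2 1.42.0, RLE, library size alone, other filters, pseudocounts and covariates, the replicate number as a block, and samples left out. Samples without the 3 livers of high NR1H4, and the scale of all libraries, were chosen after seeing the data. Scripts were tested on simulated data. The labels do not state that same-numbered samples share a boar, and samples of a group are taken as separate boars.

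The receptors and gene lists were chosen with earlier results of these data known. Named are all matched receptors, at most 3 genes per list and direction with the largest separated difference between tissues, the 2 IDs most alike to each receptor, and correlated pairs past the threshold. ABCB1, MYLIP, PLTP and SCD, the receptor pairs under an unadjusted p of 0.05, NR1I2 with NR1I3, NR1H4 with NR1H3, NR1I3 with ALAS1, the other NR1I2 targets and the liver values of ALAS1 were named after their values were seen. The result of 1 gene list is not reported here.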

Additional observations from a re-analysis of the deposited data

Results flagged for a closer look

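In 28 groups of 5 libraries (7 receptors in 4 groups), 4 held a library whose gap to the nearest other library was large against the range of its group. How often chance gives such a flag was not computed, and the groups share the same 20 libraries. NR1I3 was at 1.68 CPM in high androstenone testis replicate 4, with 0.653 CPM the next highest value, on 10 counts. NR1I3 was also highest in low androstenone liver replicate 5, at 36.3 CPM against 26.2 CPM for the next. NR1H4 stood out in the same liver, at 106 CPM against 54.3 CPM. NR1H3 was lowest in high androstenone testis replicate 1, at 4.54 CPM, with the other 4 between 8.57 and 9.08 CPM.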

How the results depend on the processing

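All 7 receptors were called between liver and testis, in the same direction, under each of 31 alternatives, while library size alone moved the median of all IDs from -0.31 to -1.28 and the called IDs from 6143 higher and 8293 lower (42.6% higher) to 3577 and 11348 (24.0% higher). No receptor was called for androstenone in either tissue or for the interaction under any alternative. Not every receptor could be called in each: NR1I2, NR1I3, HNF4A and NR1H4 entered 16 of 17 alternatives in testis. PPARG entered 17 of 18 in liver, and DESeq2 gave no adjusted p for some receptors in testis. DESeq2 called 120 IDs in testis, 7 in liver and 1 for the interaction, where edgeR called 0. Leaving out 1 replicate gave 0 to 2 called IDs in testis, with the 2 calls without low androstenone testis replicate 5, and 0 to 2 called receptor pairs. The 2 pairs, NR1I3 with HNF4A and NR1H4 with PPARA, came without high androstenone liver replicate 4, and 1 came without low androstenone liver replicate 2. The latter was NR1H4 with PPARA. Library size alone gave 1 called receptor pair, NR1I2 with HNF4A. The relation of NR1I2 with ALAS1 lost its call when values were centred on depth class (r = 0.95, adjusted p = 0.064) and without the 2 farthest livers (r = 0.89), so these gave 0 called target pairs. The causes were not tested.

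Directions of uncalled receptors turned when single replicates were left out. In testis the log2 fold change then ranged from -0.17 to 0.65 for NR1I3, from -0.26 to 1.03 for PPARA, from -0.095 to 0.39 for HNF4A and from -0.29 to 0.037 for NR1H3. In liver it ranged from -0.28 to 0.020 for PPARA and from -0.30 to 0.053 for NR1H3. The interaction ranged from -1.29 to 0.0062 for PPARA and from -0.25 to 0.14 for NR1H3. Without the 3 livers of high NR1H4, PPARA in liver was at 0.11 and its r with NR1H4 at 0.18. Of the receptors with no overlap between androstenone groups in liver, 2 in all, RLE left 1 and library size alone 0.

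Between testis and liver, 2 of 5 same-numbered pairs in the low and 3 of 5 in the high androstenone group had a correlation of deviations over 0.1 (mean r 0.073 and 0.17, against -0.019 and -0.045 for other numbers), and 2 of 5 in each correlated best with their own number. Between the androstenone groups it was over 0.1 for 3 of 5 pairs in testis and 2 of 5 in liver. Since this did not hold for every pair, the numbers were not taken as pairs. With the replicate number as a block, 0 IDs were called in testis, liver and the interaction, and 14201 between tissues. At 5 samples a group, receptors at 3 counts or fewer in testis cannot be compared between androstenone groups.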
